A study of Arabidopsis thaliana with 32 samples.

Results

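Calcium pumps and proton-coupled calcium exchangers move Ca2+ out of the cytosol of plant cells. The transcripts of 10 such genes, chosen by gene identifier, were followed in monosome and polysome RNA of Arabidopsis seedlings, out of 28394 gene identifiers in the tables. They are the vacuolar exchangers *CAX1* (AT2G38170), *CAX2* (AT3G13320) and *CAX3* (AT3G51860), the autoinhibited Ca2+-ATPases *ACA1* (AT1G27770), *ACA2* (AT4G37640), *ACA4* (AT2G41560), *ACA11* (AT3G57330), *ACA8* (AT5G57110) and *ACA10* (AT4G29900), and the ER-type Ca2+-ATPase *ECA1* (AT1G07810). All 10 were listed in each of the 6 tables and all 10 passed the filter on low values in every comparison.

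The study asked how disturbed mitochondrial Ca2+ uptake acts on translation. All seedlings were in the Col-0 background, and were 10 days old. Untreated wild type (Col-0), the overexpressor *2OX* and the sextuple mutant were taken straight from agar plates. *2OX* is a single line that carries *MCU2*, a subunit of the mitochondrial calcium uniporter, under the 35S promoter. The sextuple mutant carries lesions in *MCU1* to *MCU6*, of which those in *MCU2* and *MCU6* are promoter insertions, those in *MCU1*, *MCU3* and *MCU4* are exon insertions and that in *MCU5* was made by CRISPR/Cas9. Residual transcripts remain, so it is a knockdown. A further set of wild type spent the night in the dark in shaken liquid medium, and was then given 50 µM antimycin A (AA), an inhibitor of respiratory complex III, or the solvent DMSO. The labels give 5 h for this treatment and the methods give 4 h. Each fraction had 3 libraries per group and 4 of untreated wild type, 32 libraries in all, and *2OX* and the sextuple mutant were each set against 3 wild-type libraries, of which replicates 2 and 4 served both. Nothing in the labels says that the replicates of these fractions were separate cultures, so the p-values measure the spread between these samples.

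Resting cytosolic Ca2+ is held low, and every Ca2+ signal has to be cleared by transport against a steep gradient. CAX proteins exchange Ca2+ for protons at the vacuolar membrane and so depend on the proton pumps of that membrane. ACA proteins are P-type pumps whose N-terminal domain blocks the pump until calmodulin binds it. ACA4 and ACA11 work at the vacuole, ACA8 and ACA10 at the plasma membrane, and ACA2 and ECA1 at the endoplasmic reticulum, where ECA1 also carries Mn2+. CAX1 is known mainly from leaves and CAX3 mainly from roots, and CAX2 also carries other metals.

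Sequence bears on how far the members can be told apart, because the way reads were assigned to genes is not given in the sources used here. Over annotated exons (RefSeq, TAIR10.1), *CAX1* on chromosome 2 (15989083 to 15993326, minus strand) and *CAX3* on chromosome 3 (19239305 to 19242913, plus strand) shared at most 41 identical bases in a row. This longest run is shown because it bounds the length of a read that matches the exons of both genes without mismatch. Reads aligned with mismatches are not covered by it. The other members lie at chr3:4314505-4318487 (*CAX2*, plus), chr1:9671632-9676307 (*ACA1*, minus), chr4:17682859-17687105 (*ACA2*, minus), chr2:17332050-17337492 (*ACA4*, minus), chr3:21211014-21216836 (*ACA11*, minus), chr5:23109438-23117686 (*ACA8*, minus), chr4:14610883-14619685 (*ACA10*, minus) and chr1:2416178-2420829 (*ECA1*, plus). The run is coding in *CAX1* and *CAX3* and spans an intron, lying at chr2:15991372-15991635 in *CAX1* and at chr3:19240953-19241203 in *CAX3*.
CAX1 and CAX3: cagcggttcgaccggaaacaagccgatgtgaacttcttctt
No window of 50 bases in *CAX1*, in *CAX3* or in any of the 6 *ACA* members was found in another of the 27 genes of these families. For *CAX2* 0.179% of such windows were shared, with *CAX5* the closest gene. *ECA1* was the exception, since 24.5% of its windows were shared and its longest common run with *ECA4* was 470 bases, so the values of *ECA1* are uncertain to that extent. *ACA1* and *ACA11* each overlapped 1 annotated neighbour and *ACA10* overlapped 3, and the kit named in the labels does not mark strand, so reads of these neighbours cannot be told apart from theirs in the overlaps.

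The 250 bases before the annotated start of *CAX1* and *CAX3*, the members called after AA, were read from the same genome at chr2:15993327-15993576 (minus strand) and chr3:19239055-19239304 (plus strand), and are shown so that the motif search can be followed.
CAX1: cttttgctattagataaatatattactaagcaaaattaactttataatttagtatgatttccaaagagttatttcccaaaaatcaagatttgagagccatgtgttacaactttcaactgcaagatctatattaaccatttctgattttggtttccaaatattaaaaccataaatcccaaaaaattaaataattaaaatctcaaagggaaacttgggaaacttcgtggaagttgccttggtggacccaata
CAX3: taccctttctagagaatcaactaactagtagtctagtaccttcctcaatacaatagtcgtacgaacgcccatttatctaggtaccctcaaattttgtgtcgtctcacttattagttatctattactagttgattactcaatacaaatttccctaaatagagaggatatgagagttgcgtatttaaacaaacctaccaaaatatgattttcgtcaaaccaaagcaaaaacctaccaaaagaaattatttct
Both strands were searched for the mitochondrial dysfunction motif (bound by NAC factors), CGCGT (the core bound by CAMTA factors, which bind calmodulin), ACGTG (the core of G-boxes and abscisic acid response elements), TTGACC (the W-box) and AAATATCT (the evening element). None of these motifs occurred in the window of *CAX1* or *CAX3*, which are therefore printed without capitals. Among all 10 members the mitochondrial dysfunction motif was in 0 windows, against 1.20% of 27443 windows of nuclear coding genes. CGCGT was in 1 member, *ACA2*, where it overlaps itself on the opposite strand, against 6.87% of all windows. ACGTG was in 1 member, *ACA1*, against 22.9%, TTGACC was in 1, also *ACA1*, against 12.2%, and AAATATCT was in 0, against 4.79%.

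The libraries differed in make-up. The share of the values on nuclear protein-coding genes ran from 35.0% to 83.1% with a median of 66.2%, and *2OX* monosome replicate 2 had the lowest share. *MCU2* was raised in *2OX*, by 1.58 in monosome RNA (limma adjusted p = 0.0118) and 2.04 in polysome RNA (adjusted p = 3.0e-05) on the log2 scale. The test called no *MCU* gene tested in the sextuple mutant, where 0.101% of all genes were called in monosome and 0.149% in polysome RNA. The lowest adjusted p was 0.0651 for *MCU6* in polysome RNA, at -1.12. Of the 5 *MCU* genes other than *MCU2*, 3 were tested in monosome and 4 in polysome RNA, all lower in the mutant. At an unadjusted p under 0.05 by limma there were 3 in each fraction, beside 5.60% and 10.0% of all genes. The mitochondrial stress marker *AOX1a* rose by 0.86 in polysome RNA after AA (adjusted p = 0.00436) and was at 0.39 in monosome RNA (adjusted p = 0.101). In *2OX* it also rose in polysome RNA, by 1.07 (adjusted p = 0.00812), and was at 0.85 in monosome RNA (adjusted p = 0.128). The pollen markers summed to between 0.690 and 4.55 over all libraries, on a scale where the nuclear coding genes of a library sum to 1000000 (used here for all levels and sums).

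The comparison of AA with DMSO asked which transcripts respond to blocked respiration. *CAX3* rose in both fractions after AA and *CAX1* fell in monosome RNA, and the other 8 members were not called in either fraction. In monosome RNA 2 of 10 members were called, where 22.0% of all 21095 genes were, and 2 had an unadjusted p under 0.05, as did 33.9% of genes. In polysome RNA 1 of 10 was called, where 18.8% of 20614 genes were, and 2 (*CAX3* and *ACA1*) had an unadjusted p under 0.05, as did 32.2%. These counts are close to the share over all genes and are no result about the members as a group. The median change of the 10 was -0.02 in monosome RNA and 0.22 in polysome RNA, beside -0.02 and 0.01 over all genes tested.

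The deposited values were treated as adjusted for library size within each table and carry no unit. In monosome RNA *CAX3* stood at 644, 661 and 710 in the 3 DMSO libraries and at 896, 965 and 1016 in the 3 AA libraries. In polysome RNA it stood at 361, 309 and 376 with DMSO and at 751, 504 and 583 with AA. Every AA library lay above every DMSO library in both fractions, and AA replicate 1 was the highest in polysome RNA. The change was 0.51 ± 0.14 (SE, log2, n = 3 against 3) in monosome RNA (limma adjusted p = 0.0161), a 1.43-fold rise, and 0.80 ± 0.20 in polysome RNA (adjusted p = 0.0142), a 1.74-fold rise. The interaction of treatment and fraction, which measures the change in translational efficiency (TE), was 0.29 ± 0.24 (adjusted p = 0.693).

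*CAX1* is the most abundant of the members. Its monosome values were 9453, 10026 and 8276 with DMSO and 7058, 7037 and 7344 with AA, and its polysome values were 5526, 4878 and 4753 with DMSO and 4348, 4391 and 3863 with AA. All AA libraries lay below all DMSO libraries in both fractions. In monosome RNA such separation was found for 19.0% of all genes in this direction and for 18.4% in the direction of *CAX3*. The change was -0.37 ± 0.12 in monosome RNA (adjusted p = 0.0398), and in polysome RNA it was -0.27 ± 0.14 and did not pass (adjusted p = 0.231). The monosome call of *CAX1* rests on few libraries: it held without DMSO replicate 3 and was lost when any other single library was left out (adjusted p between 0.0603 and 0.134). The monosome call of *CAX3* was lost without DMSO replicate 1 (adjusted p = 0.0572), without AA replicate 2 (0.0502) and without AA replicate 3 (0.0545), and its polysome call without DMSO replicate 1 (0.0518) and without DMSO replicate 2 (0.0750), with the sign unchanged in each. With libraries set to equal nuclear coding sums, *CAX3* in monosome RNA was at 0.35 (adjusted p = 0.0919) and *CAX1* at -0.53 (adjusted p = 0.00421), while the median of all genes moved to -0.18.

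**Figure D1:**
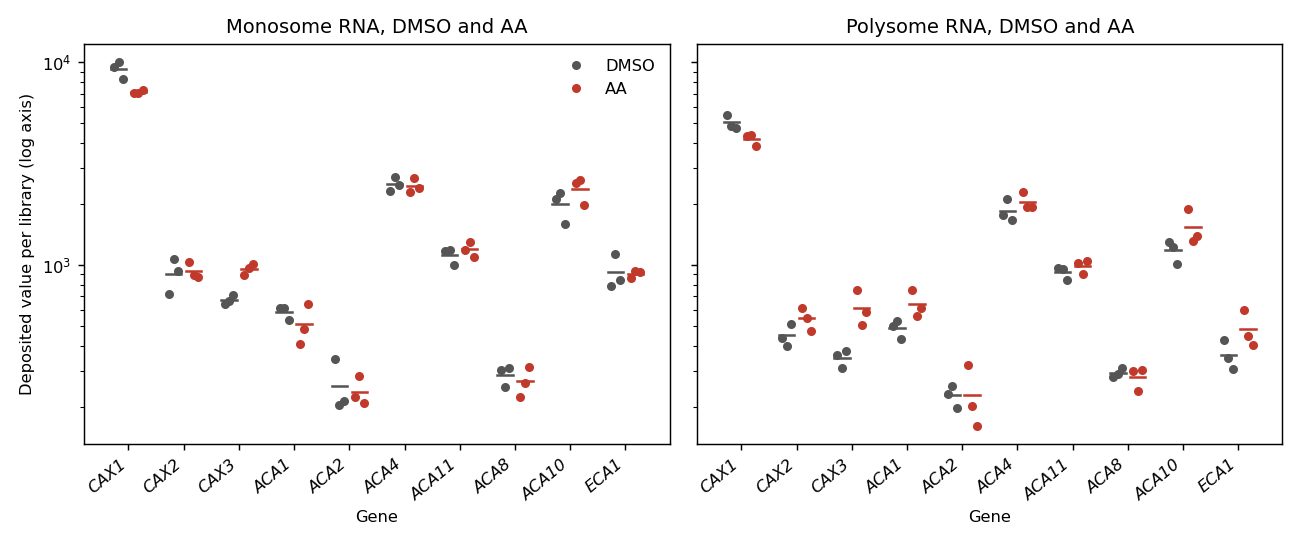
Deposited value per library (log axis) of the 10 genes in monosome and polysome RNA; points are the 3 libraries of DMSO (grey) and of AA (red), and short lines are group means. *CAX3* shows no overlap between the groups in either fraction, with DMSO at 644 to 710 and AA at 896 to 1016 in monosome RNA, and *CAX1* lies lower with AA in both.

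The remaining exchanger and the pumps did not pass the test after AA. *CAX2* changed by 0.05 ± 0.16 in monosome and 0.28 ± 0.18 in polysome RNA. *ACA4* and *ACA11*, the vacuolar pair, lay between -0.03 and 0.16, with intervals of -0.29 to 0.23 for *ACA4* and -0.20 to 0.38 for *ACA11* in monosome RNA. *ACA2* and *ACA8* lay between -0.12 and -0.05 in both fractions.

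A few members had separate polysome values without a call. *ACA1* stood at 499, 528 and 431 with DMSO and 757, 560 and 615 with AA in polysome RNA, a difference of 0.40 ± 0.18 (adjusted p = 0.152), while its monosome values of 610, 613 and 534 with DMSO and 405, 482 and 645 with AA gave -0.22 ± 0.19 (adjusted p = 0.436). *ACA10* stood at 1302, 1233 and 1011 with DMSO and 1891, 1314 and 1390 with AA in polysome RNA (0.36 ± 0.18, adjusted p = 0.191). *ECA1* stood at 429, 349 and 305 with DMSO and at 599, 448 and 405 with AA, which overlap (0.42 ± 0.21, adjusted p = 0.193). Thus *CAX3*, *ACA1* and *ACA10*, 3 of 10, had all AA polysome values above all DMSO values, beside 18.0% of all genes, and *CAX1*, 1 of 10, had all below, beside 19.7%.

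For TE 0 of 10 members were called by limma after AA, where 0.887% of 21769 genes were, and at an unadjusted p under 0.05 there was 1 (11.9% of all genes), *ACA1*, with a TE change of 0.62 ± 0.26 (adjusted p = 0.358) that was 0.34 without AA replicate 1. With the replicate number as a block, which pairs the fractions, 470 genes were called and still 0 members. The TE errors given here are those of the fit without this block. The median of the 10 TE estimates was 0.15 beside 0.04 over all genes, and the estimates of *ACA2*, *ACA8*, *ACA10* and *ACA11* changed sign when single libraries were left out.

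**Figure D2:**
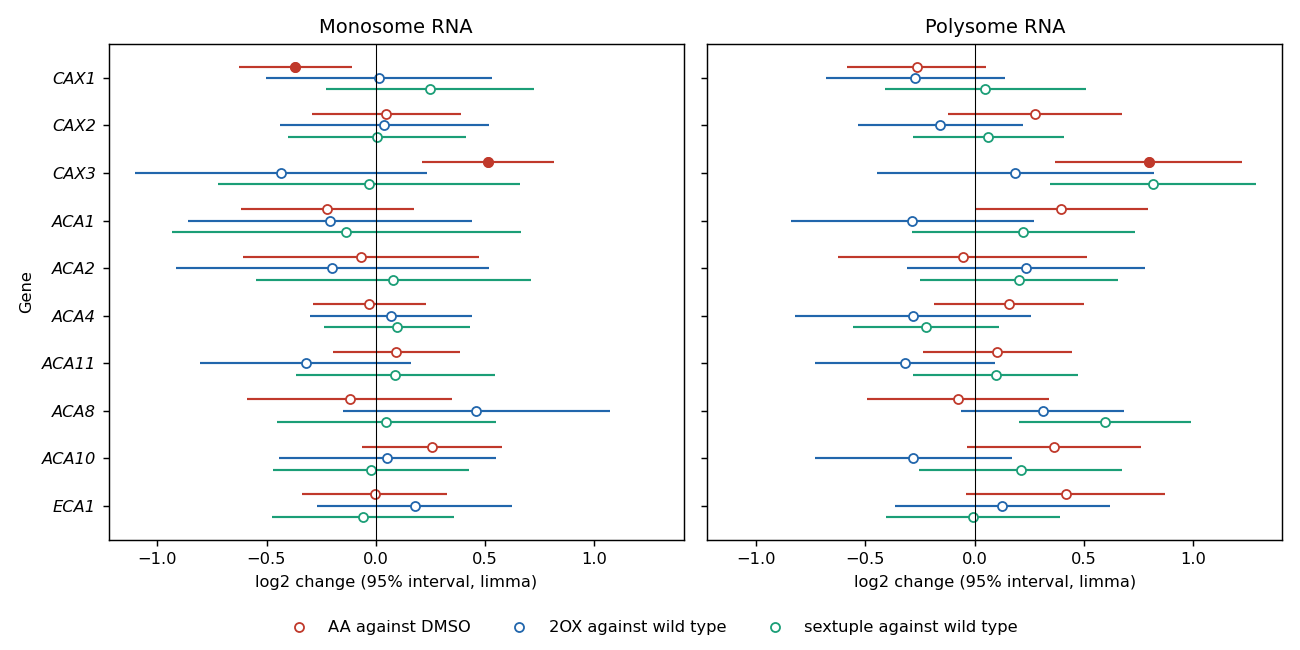
Log2 change of each gene (circles) with its 95% interval (lines) from limma in monosome and polysome RNA, for AA against DMSO (red), *2OX* against wild type (blue) and the sextuple mutant against wild type (green); filled circles are changes with an adjusted p under 0.05. The filled circles are *CAX3* at 0.51 and 0.80 and *CAX1* at -0.37, all after AA.

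Markers of root tissue moved with the AA comparison. Of 10 root markers 6 fell and 1 rose in monosome RNA, and 6 of the 9 tested fell in polysome RNA, among them *PHO1* and *NRT1.5*, transporters that load phosphate and nitrate into the xylem. Over all genes 22.0% were called in monosome and 18.8% in polysome RNA, in both directions together. *PHO1* changed by -1.47 in monosome and by -1.89 in polysome RNA. The marker that rose was *PYK10*, a root beta-glucosidase, by 0.92 in monosome RNA. The summed level of the root list ran from 689 to 780 with DMSO and from 752 to 843 with AA in monosome RNA, and from 331 to 334 with DMSO and 230.2 to 325 with AA in polysome RNA. Of 7 leaf and guard cell markers 1, *RCA* (Rubisco activase), rose in monosome RNA, by 0.51, and their summed level overlapped between the groups in both fractions. The part of these shifts in the values of *CAX3* and *CAX1* was not tested, and in whole seedlings fewer cells of a type and less RNA per cell cannot be told apart.

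Other genes of the same families were called in both directions. Of 17 further pump and exchanger genes, 15 were tested after AA. In monosome RNA 3 rose and 1 fell, and in polysome RNA 3 rose and 1 fell, with a median change of 0.23 and 0.44 beside -0.02 and 0.01 over all genes. The 4 calls in each fraction are close to the 22.0% and 18.8% called over all genes. *NCL*, a vacuolar Na+/Ca2+ exchanger-like gene, stood at 896 to 1024 with DMSO and 1848 to 2178 with AA in monosome RNA, without overlap, and rose by 1.06 ± 0.13 (adjusted p = 2.0e-05). In polysome RNA *NCL* rose by 0.82 ± 0.18 (adjusted p = 0.00809).

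*CCX1*, a cation/Ca2+ exchanger, rose by 0.69 ± 0.14 in monosome RNA (adjusted p = 0.00176), and *CCX2* rose by 1.70 ± 0.39 in polysome RNA (adjusted p = 0.0100), from 16.2 to 17.2 with DMSO to 38.5 to 74.0 with AA. *ACA12*, a pump of the plasma membrane that calmodulin does not control, rose by 0.54 ± 0.17 in monosome RNA (adjusted p = 0.0334). *ACA9*, the pump of the pollen tube membrane, was at low values, 26.5 to 53.1 with DMSO and 0.194 to 6.88 with AA in monosome RNA. It fell by 3.55 ± 0.97 there (adjusted p = 0.0145) and by 3.15 ± 0.61 in polysome RNA (adjusted p = 0.00384), on a log2(value + 1) scale that understates changes of low genes.

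Some of the proton pumps that set up the gradient for CAX proteins rose in monosome RNA after AA. Of 13 genes 5 were called there, where 22.0% of all genes were, *VHA-E1* by 0.65 ± 0.13 (adjusted p = 0.00123), *VHA-a3* by 0.53 ± 0.12 (adjusted p = 0.00422) and *VHA-d2*, *VHA-d1* and *VHA-B1* by 0.36 to 0.46, all subunits of the vacuolar H+-ATPase. In polysome RNA 0 of 13 passed by limma (18.8% of all genes), with 3 at an unadjusted p under 0.05 (32.2% of all genes), and the median change was -0.09, against 0.23 in monosome RNA. The interaction of treatment and fraction called 0 of the 13, with 5 at an unadjusted p under 0.05 (11.9% of all genes), so a difference between the fractions did not pass the test for any of them.

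Channels that let Ca2+ into the cytosol were also called both ways. Of 14 genes 4 rose and 1 fell in monosome RNA, and 3 rose and 1 fell in polysome RNA, beside 22.0% and 18.8% called over all genes. *TPC1*, the slow vacuolar channel, rose by 0.78 ± 0.14 in monosome RNA (adjusted p = 0.000765) and by 0.52 ± 0.17 in polysome RNA (adjusted p = 0.0483). *CNGC4* rose by 0.70 and 0.99 in the respective fractions and *CNGC6* by 0.48 and 0.60. *CNGC14*, a channel of root hairs and root tips, fell by 1.67 in monosome RNA, and *MCA1*, a plasma membrane protein of mechanosensing, fell by 0.67 in polysome RNA. Of the 3 regulators of CAX proteins tested (*CXIP1*, *CXIP4* and the kinase *SOS2*) 0 passed by limma in either fraction, with 1 at an unadjusted p under 0.05 in monosome RNA (33.9% of all genes).

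The comparison of *2OX* with wild type asked what more *MCU2* transcript does to these genes. None of the 10 members was called in monosome RNA, polysome RNA or TE, where 0.0866%, 0.171% and 0.00486% of all genes were called, and 0 members reached an unadjusted p under 0.05 by limma, as 4.90%, 5.76% and 1.65% of all genes did. All 10 overlapped between the groups in both fractions, while of all genes 4.95% lay wholly higher and 5.09% wholly lower in monosome RNA, and 5.36% and 5.09% in polysome RNA. *CAX3* stood at 189, 134 and 98.9 in wild type and at 133, 99.5 and 76.6 in *2OX* in monosome RNA (-0.43 ± 0.31, n = 3 against 3), with an interval of -1.10 to 0.24. *ACA8* was at 0.46 ± 0.29 in monosome RNA, and between 0.23 (without wild-type replicate 4) and 0.76 (without *2OX* replicate 3) with single libraries left out. In polysome RNA it was at 0.31 ± 0.17. The polysome changes of the 10 ran from -0.32 to 0.31, with a median of -0.21 beside -0.01 over all genes. The widest interval in polysome RNA among the pumps was that of *ACA1*, from -0.84 to 0.27. Over 15818 genes the deviations of *2OX* replicates 1, 2 and 3 from their group mean correlated positively with those of wild-type replicates 2, 3 and 4 in turn. These r were 0.21 to 0.26 in monosome and 0.11 to 0.21 in polysome RNA, and every other pair was negative. A fit with these pairs was not run, so the errors and intervals given here are those of unpaired groups.

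The sextuple mutant was compared with wild type to see the effect of lowered *MCU* transcripts. Again 0 of 10 members were called by limma in either fraction or in TE, where 0.101%, 0.149% and 0% of all genes were called. With the replicate number as a block, limma called *CAX1* in monosome RNA (0.67, adjusted p = 0.0392) and *ACA8* in polysome RNA (0.90, adjusted p = 0.0346). That block called 97 of 19892 and 173 of 20110 genes and rests on the 2 replicate numbers that both groups share. At an unadjusted p under 0.05 there were 0 in monosome RNA, 2 in polysome RNA (*CAX3* and *ACA8*) and 0 in TE, where 5.60%, 10.0% and 3.55% of all genes were. In monosome RNA all 10 members overlapped, while 5.06% of all genes lay wholly higher and 5.68% wholly lower in the mutant.

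In polysome RNA *CAX3* stood at 74.3, 106 and 110 in wild type and at 157, 180.3 and 170.5 in the sextuple mutant. The groups did not overlap, and of all genes 7.27% lay wholly higher and 7.97% wholly lower, and the difference was 0.82 ± 0.22 (adjusted p = 0.211). In monosome RNA *CAX3* stood at 108, 223 and 116 in wild type and 175, 164 and 91.4 in the mutant, which overlap (-0.03 ± 0.33). *ACA8*, the plasma membrane pump, stood at 388, 542 and 632 in wild type and at 879, 834 and 631 in the mutant in polysome RNA, where the lowest mutant library lay just below the highest wild-type one (0.60 ± 0.19, adjusted p = 0.302). Its monosome difference was 0.05 ± 0.24. In the fit that does not pair the fractions, the TE estimates of *CAX3* and *ACA8* were 0.85 ± 0.43 and 0.55 ± 0.33. With single libraries left out they ran from 0.55 (without sextuple replicate 3) to 1.09 (without wild-type replicate 4) for *CAX3* and from 0.20 (without wild-type replicate 1) to 1.02 (without wild-type replicate 4) for *ACA8*.

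*CAX1* was uneven among the sextuple libraries. In monosome RNA it stood at 4682, 4181 and 2366 in the mutant and at 3701, 2093 and 3572 in wild type, so mutant replicate 3 and wild-type replicate 2 were low and the groups overlapped (0.25 ± 0.23). The other 7 members lay between -0.22 and 0.22 in both fractions of the mutant. Of the further pumps and exchangers, proton pumps, Ca2+ channels and CAX regulators, and of the root and leaf markers, 0 were called by limma in either line and fraction. At an unadjusted p under 0.05 the further pumps and exchangers numbered 0 in monosome and 1 in polysome RNA of *2OX*, and 1 and 0 in the sextuple mutant, and the channels 0 and 1 in *2OX* and 0 and 3 in the mutant. Over all genes these shares were 4.90% and 5.76% in *2OX* and 5.60% and 10.0% in the mutant.

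The AA change was set against the change of each line in a joint fit. In monosome RNA the AA change differed from the *2OX* change for 6.69% of all genes and from the sextuple change for 8.78%, and in polysome RNA for 9.03% and 14.3%. None of the 10 members passed by limma in any of these. At an unadjusted p under 0.05 there were 1 and 0 members in monosome RNA (19.7% and 22.2% of all genes) and 1 and 1 in polysome RNA (22.6% and 27.6%), against *2OX* and the sextuple mutant in that order. *CAX3* had the largest difference, 0.95 between AA and *2OX* in monosome RNA (adjusted p = 0.102). Of 12 fits that each left out 1 library, it passed there in 2. These were without wild-type replicate 4 (1.17, adjusted p = 0.0402) and without *2OX* replicate 1 (1.15, adjusted p = 0.0423). Over the 12 fits the difference ran from 0.71 to 1.17, with a limma adjusted p of up to 0.234. In polysome RNA the AA and sextuple changes of *CAX3* differed by -0.02 (adjusted p = 0.97). *ACA8* was at -0.67 between AA and the sextuple mutant in polysome RNA (adjusted p = 0.112). *CAX1* was at -0.62 between AA and the sextuple mutant in monosome RNA (adjusted p = 0.227). It passed there in 1 of 12 such fits, without sextuple replicate 3 (-0.92, adjusted p = 0.0265). Over these fits it ran from -0.92 to -0.35, with a limma adjusted p of up to 0.504.

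To compare genes with each other, values were set to a nuclear coding sum of 1000000 per library and divided by exon length in kb, which gives the level used here. In untreated wild type *CAX1* was the highest member in monosome RNA with a level of 70.8 ± 15.5 (SD, n = 4), and *ACA4* followed with 24.5 ± 3.55 and *CAX2* with 9.13 ± 1.06. The replicates of these 3 genes did not overlap. From *CAX2* downward each member overlapped the next, through *ACA10* (7.72 ± 1.92), *ECA1*, *ACA8*, *ACA11*, *CAX3* (4.53 ± 1.78) and *ACA1* to *ACA2* (2.05 ± 0.558).

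In polysome RNA of untreated wild type the order again began with *CAX1* (38.4 ± 6.96) and *ACA4* (20.7 ± 3.09), and *CAX3* (1.71 ± 0.488) and *ACA2* (1.43 ± 0.255) were lowest and overlapped. *CAX1* held the first place in all 5 groups and both fractions, and only in polysome RNA of *2OX* did it overlap with *ACA4*. *ACA2* held the last place throughout.

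The dark-kept DMSO seedlings and the untreated seedlings were in separate tables and differed in handling, so they are given side by side without a test. On this scale the median gene was higher with DMSO by 0.58 in monosome and 0.43 in polysome RNA (log2), and all DMSO libraries lay above all untreated ones for 50.5% and 47.5% of genes. *CAX3* was at 14.3 ± 0.942 with DMSO and 4.53 ± 1.78 untreated in monosome RNA, and at 6.54 ± 0.782 and 1.71 ± 0.488 in polysome RNA, which is 1.73 and 1.98 on the log2 scale and the largest ratio among the members in both fractions. In all, 7 of 10 members in monosome RNA and 8 of 10 in polysome RNA had all DMSO libraries above all untreated ones.

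*ACA8* and *ACA4* went the other way. *ACA8* was at 2.79 ± 0.177 with DMSO and 5.65 ± 1.52 untreated in polysome RNA (-0.98), and *ACA4* at 13.9 ± 1.52 and 20.7 ± 3.09 (-0.57), each without overlap, as for 13.4% of all genes that were lower. In monosome RNA both overlapped, and 10.3% of all genes were lower without overlap. *ACA10*, the partner of *ACA8* at the plasma membrane, was at 10.3 ± 1.20 with DMSO and 5.76 ± 1.12 untreated in polysome RNA, so *ACA10* lay above *ACA8* with DMSO, whereas the 2 genes overlapped in untreated seedlings. The summed level of the leaf markers was 113034 to 141558 in untreated and 24283 to 36604 in DMSO monosome libraries, and its part in these differences was not tested.

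**Figure D3:**
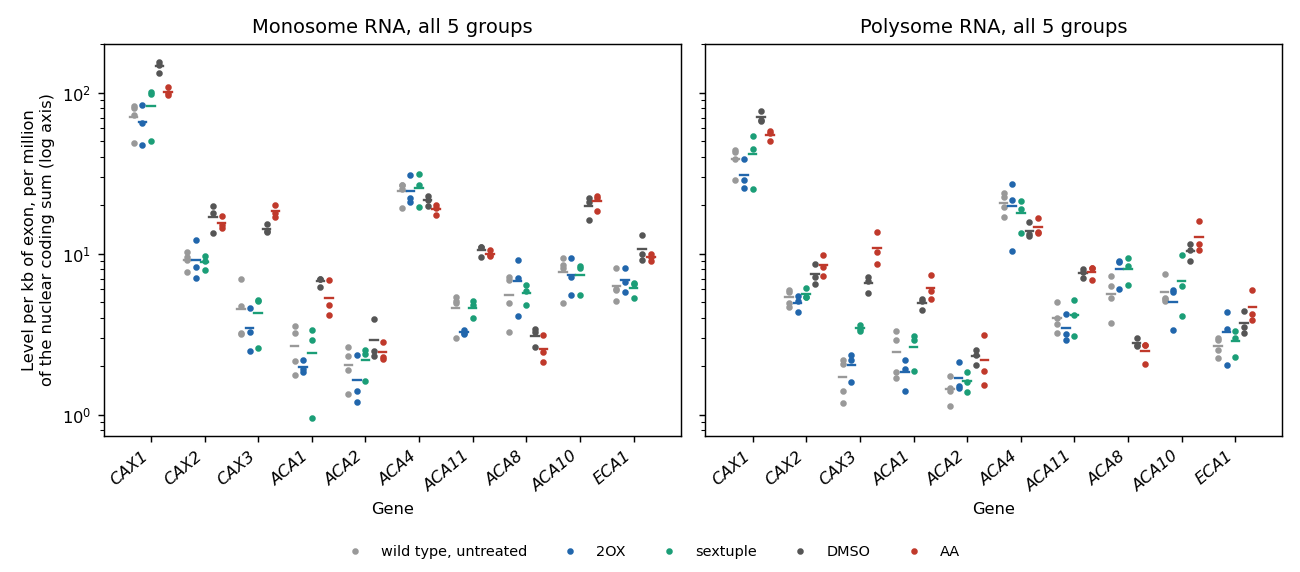
Level of each gene per kb of exon, scaled to the nuclear coding sum of the library (log axis), in the 5 groups and both fractions; points are libraries and short lines are means. *CAX1* is highest throughout, and *CAX3* is at 1.71 in untreated wild type, 6.54 with DMSO and 10.8 with AA in polysome RNA. *ACA8* is lower with DMSO and AA than in untreated seedlings in polysome RNA, while its DMSO and untreated libraries overlap in monosome RNA.

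The distribution of each transcript between the fractions was described by the log2 polysome to monosome ratio of each replicate, relative to the median of all genes in that replicate. *CAX1*, *CAX2* and *ECA1* lay below the median gene in all 16 replicates, as did 16.3% of 20150 genes, and *CAX3* did so in 15 of 16. In untreated wild type *CAX3* was at -1.16 ± 0.58 (SD, n = 4) and *ECA1* at -1.01 ± 0.18, while *CAX1* was at -0.66 ± 0.18 and *CAX2* at -0.56 ± 0.15. No member lay above the median gene in every replicate, as 17.4% of genes did.

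The *ACA* pumps spread around the median gene. *ACA8* lay above it in 13 of 16 replicates, with 0.64 ± 0.12 in the sextuple mutant and 0.26 ± 0.75 in untreated wild type, where the 4 replicates ran from -0.60 to 1.02. *ACA4* and *ACA10* lay above it in 5 and 3 of 16, and *ACA1*, *ACA2* and *ACA11* in 10, 7 and 6 of 16. After AA *CAX3* was at -0.51 ± 0.33 and with DMSO at -0.79 ± 0.14, within the spread, and *ACA1* was at 0.51 ± 0.45 and -0.11 ± 0.04.

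**Figure D4:**
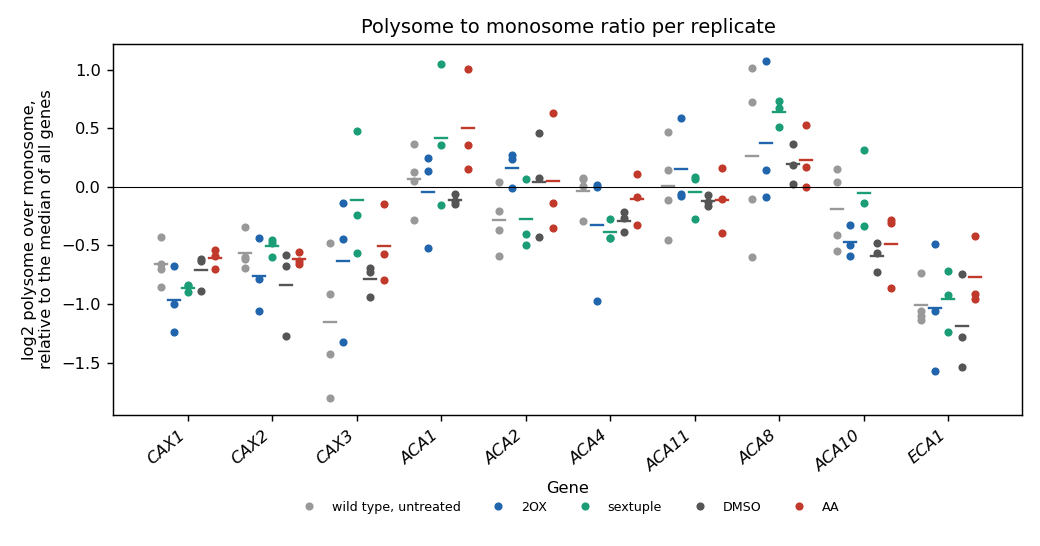
Log2 polysome to monosome ratio of each gene relative to the median of all genes (line at 0), 1 point per replicate and a short line for the mean of each group. *CAX1*, *CAX2* and *ECA1* lie below 0 in all 16 replicates, and *ACA8* above 0 in 13.

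*CAX3* had the smallest adjusted p in polysome RNA after AA, and the genes most like it were looked for over the 12 libraries of the AA comparison, with each fraction centred on its mean. Of 21769 genes the closest were *ABCC8*, an ABC transporter (Pearson r = 0.978), *ESL1*, a sugar transporter of the ERD6-like group (0.977), and *YSL3*, a transporter of metal complexes (0.975). *YSL3* stood at 672, 586 and 715 with DMSO and 1477, 1008 and 1232 with AA in polysome RNA. Like *CAX3*, it had its highest polysome value in AA replicate 1. The libraries of both fractions come from shared samples and both treatments enter the correlation, so r describes these libraries only. Among the other members *ACA10* was closest to *CAX3* (0.632) and *CAX1* was furthest (-0.756).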

How the data were processed

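Monosome and polysome RNA of 32 libraries was analysed. Per gene and library the authors deposited a signal, which was treated as adjusted for library size within each table. The labels' processing notes name Bowtie 0.12.2 and TAIR10, and the read counter and the normalization are not given in the sources used here. No read counts could be recovered, so the depth in reads is unknown, and sums of values ran from 21434500 to 45133200. The tables also hold fold changes, p-values and scores of the authors' own comparisons, which were not used.

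Values were taken as log2(value + 1) for genes with 10 or more in 3 or more libraries and fitted with limma 3.58.1 (R 4.3.3, variance trend). TE is the interaction of group and fraction. Its main fit took the fractions of a sample as independent, so the TE errors and p-values given do not use their pairing. Two-sided p-values were adjusted by Benjamini-Hochberg over all genes of a fit (threshold 0.05). Wild-type values of replicates 2 and 4 differed between both tables by at most 0.374% on the common scale. The fit was checked on simulated data. Python 3.11.15, numpy 2.4.6, pandas 2.3.3 and matplotlib 3.10.9 were used.

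The members and gene lists were chosen with earlier results of these data known. All members are named. Of other lists, up to 5 genes called in any comparison are named by smallest adjusted p, as are *MCU* genes, *AOX1a* and markers; *PYK10*, *PHO1*, *NRT1.5* and *RCA* were chosen after their values were seen. Sequences are from RefSeq (TAIR10.1). Deviations of fractions with the same replicate number correlated at 0.13 to 0.34 in the AA and 0.12 to 0.50 in the *2OX* comparison, all 6 pairs each, so these numbers pair the fractions. In the sextuple comparison 5 of 6 pairs were over 0.1 and the lowest was 0.0044, so the pairing behind its ratios per replicate is less sure.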

Additional observations from a re-analysis of the deposited data

Results flagged for a closer look

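Outliers were looked for in the 4 untreated wild-type libraries of each gene and fraction, 20 tests, of which chance would flag about 1 in 20. A single library stood apart in 2 of them. *ACA10* was at a level of 7.43 in polysome replicate 3, above 5.08 to 5.29 in the other replicates. *ACA11* was at 3.01 in monosome replicate 4, below 4.95 to 5.35 in the others, at the limit of the test.

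Some of the further genes changed after AA in a way that differed from the change of a line, by the joint limma fit. *NCL* differed by 1.20 from *2OX* (adjusted p = 0.00121) and by 1.00 from the sextuple mutant (adjusted p = 0.0024) in monosome RNA, and by 0.77 from the sextuple mutant in polysome RNA (adjusted p = 0.0366). *VHA-E1* differed by 0.76 from *2OX* (adjusted p = 0.0179) and by 0.69 from the sextuple mutant (adjusted p = 0.0172) in monosome RNA. *ACA9* differed by -4.12 from *2OX* (adjusted p = 0.00109) and by -3.95 from the sextuple mutant (adjusted p = 0.000913) in polysome RNA. This gene was at low values in the monosome libraries of the AA comparison, as given above.

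Among the channels, *CNGC14* differed by -2.09 from *2OX* in monosome RNA (adjusted p = 0.0207) and by -2.15 from the sextuple mutant in polysome RNA (adjusted p = 0.0326). *TPC1* differed by 0.83 (adjusted p = 0.027) and *CNGC6* by 0.65 (adjusted p = 0.0414) from the sextuple mutant in monosome RNA, and *MCA1* by -0.76 in polysome RNA (adjusted p = 0.0316). Both line comparisons share wild-type libraries, and of the 10 calcium pump and exchanger genes 0 passed this test with all libraries, while *CAX3* against *2OX* and *CAX1* against the sextuple mutant passed in monosome RNA when certain single libraries were left out.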

How the results depend on the processing

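After AA, 2 members were called in monosome RNA, and 1 without the filter on low values, with equal medians, with equal nuclear coding sums or without the variance trend. The lost member was *CAX1* (adjusted p = 0.0528, 0.0984 and 0.123), except with equal nuclear coding sums, where it was *CAX3* (0.0919); the cause was not tested. That scaling moved the median of all genes in monosome RNA from -0.02 to -0.18 and the higher share of calls from 52.8% to 31.8% (in polysome RNA 1748 of 3883 calls were higher, and 34.5% under that scaling); relative to the median gene *CAX3* was at 0.54 under both and *CAX1* at -0.34. Leaving out 1 library gave 0 to 2 calls in monosome and 0 to 1 in polysome RNA, and 0 to 1 for the AA change minus the *2OX* or the sextuple change in monosome RNA.

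With the replicate number as a block, counts after AA stayed at 2 and 1. In the sextuple comparison 1 member was called in monosome RNA (*CAX1*, 0.67) and 1 in polysome RNA (*ACA8*, 0.90), against 0 without it. Deviations of same-numbered groups correlated at 0.07 to 0.20 in monosome and -0.08 to 0.20 in polysome RNA of the AA comparison. In the sextuple comparison they correlated at -0.02 to 0.16 and 0.01 to 0.12, over 2 shared numbers. Whether the numbers pair the groups is therefore not settled in either. The TE block called 470 genes after AA in place of 193, and still 0 members. In the *2OX* comparison the block left 0 members called, but only 2 replicate numbers are shared there. Those same-numbered groups correlated at -0.17 to -0.15 in monosome and -0.17 to -0.08 in polysome RNA. In monosome and polysome RNA the block does not match the groups that vary together, so its result there decides nothing. The TE block pairs the fractions within each sample and does not use the numbers shared between groups. Among changes of single members under all alternatives, 2078 kept their side and size, 53 moved by more than their standard error, 5 gained and 14 lost a call, and no called value changed sign. Levels given as deposited moved by more than the replicate spread in 17 of 20 cases, by the tables' own scaling. Count models (edgeR, DESeq2) were not run, because read counts could not be recovered; depth is unknown.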
